A study of Mus musculus with 4 samples.

Results

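A set of 10 basement membrane genes was followed across the embryonic salivary gland: the collagen IV chains Col4a1, Col4a2, Col4a5 and Col4a6, the heparan sulphate proteoglycans Hspg2 (perlecan), Agrn (agrin) and Col18a1 (collagen XVIII), the nidogens Nid1 and Nid2, and the collagen-binding protein Sparc. They were chosen by symbol from the 27998 genes of the deposited tables, and all 10 members were found. Submandibular and parotid glands of ICR mice at embryonic day 12, approximately 10 of each pooled, had been parted into epithelium and mesenchyme with Dispase II and captured by droplet single-cell RNA sequencing (10x Chromium). The 4 libraries, submandibular epithelium, parotid epithelium, submandibular mesenchyme and parotid mesenchyme, share strain and age, and no treatment is labelled. Each group has 1 library, so no test between groups exists and no p-value is given. All intervals are exact 95% intervals for counting error, and they leave out the variation between animals and between captures.

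The basement membrane is a thin sheet of matrix under epithelia and around blood vessels. Collagen IV and laminin each form a network there, nidogens bridge the networks, and perlecan, agrin and collagen XVIII carry heparan sulphate chains that bind growth factors such as FGF10. In cultured mouse submandibular glands, collagen IV fragments released by a membrane metalloproteinase and FGF10 released from perlecan by heparanase both act on branching. Collagen IV chains assemble as trimers, of which the Col4a1 and Col4a2 product is the widespread form, and the Col4a5 and Col4a6 products share a form with a narrower tissue range.

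The collagen IV genes lie head to head in pairs, and the windows between them are shown because the members of a pair are compared below. On GRCm38, Col4a1 (chr8:11198423-11312826, minus strand) and Col4a2 (chr8:11312805-11449287, plus strand) overlap by 22 bases at their 5′ ends in the GENCODE annotation. The starts of Col4a6 (chrX:141165403-141474076, minus strand) and Col4a5 (chrX:141475385-141689234, plus strand) lie 1309 bases apart. RefSeq promoter windows of 300 bases (GRCm38.p6), from 250 bases before to 50 bases after the start, were at hand for 9 of the 10 members. Those of Col4a1 (chr8:11312777-11313076, minus strand) and Col4a2 (chr8:11312555-11312854, plus strand) share 78 bases, printed in capitals on the strand of each gene.
Col4a1: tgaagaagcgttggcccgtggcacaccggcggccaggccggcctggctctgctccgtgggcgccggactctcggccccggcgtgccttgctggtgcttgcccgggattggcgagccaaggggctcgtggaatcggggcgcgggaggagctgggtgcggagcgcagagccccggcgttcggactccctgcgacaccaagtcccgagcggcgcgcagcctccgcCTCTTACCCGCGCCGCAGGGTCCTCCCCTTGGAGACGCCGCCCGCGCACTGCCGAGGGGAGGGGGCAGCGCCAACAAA
Col4a2: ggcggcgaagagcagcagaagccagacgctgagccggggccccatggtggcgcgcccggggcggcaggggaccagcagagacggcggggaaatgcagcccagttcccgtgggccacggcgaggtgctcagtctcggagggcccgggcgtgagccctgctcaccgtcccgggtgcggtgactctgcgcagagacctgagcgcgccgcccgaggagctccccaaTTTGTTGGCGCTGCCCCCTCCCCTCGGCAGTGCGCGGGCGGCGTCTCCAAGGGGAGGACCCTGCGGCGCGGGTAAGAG
In the windows of Col4a5 (chrX:141475169-141475468, plus strand) and Col4a6 (chrX:141474027-141474326, minus strand), capitals mark the GC box GGGCGG or its reverse complement CCGCCC.
Col4a5: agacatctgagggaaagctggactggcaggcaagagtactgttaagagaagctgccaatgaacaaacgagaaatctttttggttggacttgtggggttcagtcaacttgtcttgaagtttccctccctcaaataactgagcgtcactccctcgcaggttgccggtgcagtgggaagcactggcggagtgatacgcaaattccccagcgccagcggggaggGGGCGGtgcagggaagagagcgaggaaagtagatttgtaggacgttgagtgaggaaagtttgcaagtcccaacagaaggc
Col4a6: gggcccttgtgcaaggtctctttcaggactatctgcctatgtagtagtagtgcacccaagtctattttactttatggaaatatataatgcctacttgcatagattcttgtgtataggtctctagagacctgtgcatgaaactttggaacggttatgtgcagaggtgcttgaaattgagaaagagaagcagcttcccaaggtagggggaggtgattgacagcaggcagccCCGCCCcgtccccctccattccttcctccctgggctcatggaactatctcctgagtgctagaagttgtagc
The Col4a1 and Col4a2 windows held 74% and 73.7% G and C, against 52.7% and 48.3% in the Col4a5 and Col4a6 windows and a median of 52.7% over 32851 RefSeq windows. On both strands, GGGCGG or its reverse complement occurred 1 time in the Col4a1 window, 3 times in that of Col4a2, and 1 time each in those of Col4a5 and Col4a6. It was present in 35.7% of all windows. CCAAT occurred once in the windows of Col4a1, Col4a2 and Col4a5 and was not found in that of Col4a6, and 37.4% of all windows held it. No match of one motif overlapped a match of the other in these 4 windows. TATAAA, found in 13.6% of all windows, was in none of the 11 windows of the 9 members. The other members lie on chromosomes 10 (Col18a1, chr10:77052178-77166548), 13 (Nid1, chr13:13437551-13512269), 14 (Nid2, chr14:19751265-19811787), 4 (Hspg2, chr4:137468769-137570630, and Agrn, chr4:156165290-156197488) and 11 (Sparc, chr11:55394500-55423183).

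The libraries held 15351 barcodes, of which 14884 with at least 500 detected genes and at most 10% mitochondrial molecules were kept. Their totals ran from 14004908 UMIs (molecular identifiers that count each captured transcript 1 time) in parotid epithelium to 39621166 in submandibular epithelium. Between 1.39% and 1.90% of a library's barcodes recurred in another library. Cells were classed by at least 3 UMIs summed over fixed marker genes. This gave 3183 submandibular and 1760 parotid epithelial-like cells, and 4127 submandibular and 3916 parotid mesenchymal-like cells. Endothelial cells, defined by at least 3 UMIs of Cdh5 + Pecam1 + Kdr, numbered 120 in submandibular mesenchyme (2.48% of kept barcodes) and 59 in parotid mesenchyme (1.33%). None were found in either epithelium library.

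Markers that the gate did not use were compared with the endothelial label. All 12 of 12 such genes, Cldn5, Tie1, Tek, Esam, Emcn, Egfl7, Ramp2, Flt1, Eng, Erg, Sox17 and Sox18, were at least 10-fold higher in endothelial than in mesenchymal-like cells of both libraries. Their summed level was 3770 UMIs per 1000000 UMIs of the class (CPM) in submandibular and 3682 CPM in parotid endothelial cells, against 51.5 and 32.7 CPM in mesenchymal-like cells. Each was detected in at least 28.8% of the endothelial cells. Mesenchymal marker genes, 8 in all, stood in endothelial cells at 7.19% (submandibular) and 8.42% (parotid) of their summed mesenchymal level. Erythroid-like cells, which should lack them, stood at 3.79% and 3.55%. Median depths were 17147 and 16858 UMIs in erythroid-like and 8976 and 9030 UMIs in endothelial cells. The part of depth in the difference between these shares was not tested. Skeletal muscle markers summed to 122 CPM in submandibular and 9.44 CPM in parotid endothelial cells, and 4 and 5 endothelial barcodes also passed another class's gate. Leaving those out changed no member's call.

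Collagen IV chains Col4a1 and Col4a2, the core of the network, were highest in endothelial cells. Epithelial-like and mesenchymal-like cells held far less, within a narrow range for each gene. Col4a1 stood at 672 CPM (628 to 719) in submandibular and 658 CPM (596 to 724) in parotid endothelial cells. It stood at 32.0 CPM (29.8 to 34.4) in submandibular and 33.6 CPM (31.3 to 36.0) in parotid mesenchymal-like cells. Epithelial-like cells held 37.0 CPM (34.9 to 39.1) in the submandibular and 33.2 CPM (30.2 to 36.5) in the parotid gland. The endothelial values did not overlap any other class, while neighbouring values among epithelium, mesenchyme and muscle had intervals that overlapped. The intervals of submandibular epithelium and submandibular mesenchyme did not overlap. Parotid muscle-like cells, at 22.5 CPM (17.5 to 28.6), lay below both. Col4a1 was thus 20.997-fold higher (19.02 to 23.2) in endothelial than in mesenchymal-like cells of the submandibular gland and 19.6-fold higher (17.4 to 22.1) in the parotid gland.

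Col4a2 was likewise highest in endothelial cells, with 372 CPM (339 to 407) and 447 CPM (396 to 502) in submandibular and parotid endothelial cells. Its other values were 22.6 and 25.7 CPM in submandibular and parotid mesenchyme, and 21.2 and 24.4 CPM in submandibular and parotid epithelium. The endothelial level exceeded the mesenchymal one 16.5-fold (14.5 to 18.7) in the submandibular gland and 17.4-fold (15.05 to 20.04) in the parotid gland. Within endothelial cells both chains were widely detected. A Col4a1 UMI was present in 89.2% of submandibular and 94.9% of parotid endothelial cells, and the median cell held 5 UMIs in each, up to 36 and 31. Thinned to 2500 UMIs per cell, the shares were 69.2% (60.1 to 77.3) and 71.2% (57.9 to 82.2). Submandibular and parotid mesenchymal-like cells then stood at 7.02% and 8.20%, and erythroid-like cells, which should lack the gene, at 0 of 105 and 0 of 69 (upper limits 3.45% and 5.21%). Median depths before thinning were 8976 and 9030 UMIs in endothelial, 5290 and 5573 in mesenchymal-like and 17147 and 16858 in erythroid-like cells.

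The paired chains were also detected together in endothelial cells. At 2500 UMIs, Col4a2 was present in 67.5% (56.3 to 77.4) of the submandibular endothelial cells that held Col4a1 and in 35.1% (20.2 to 52.5) of those that did not. The parotid values were 73.8% (58.0 to 86.1) and 41.2% (18.4 to 67.1), whose intervals overlap. In submandibular epithelium the same shares were 5.65% and 5.45%, and in submandibular mesenchyme 6.27% and 4.89%, each pair within counting error. Sparc was present in 89.2% (80.4 to 94.9) of submandibular endothelial cells with Col4a1 and 45.9% (29.5 to 63.1) of those without. The parotid values were 90.5% (77.4 to 97.3) and 82.4% (56.6 to 96.2), whose intervals overlap. Col18a1 showed no such split in submandibular endothelial cells, at 67.5% and 67.6%, while the parotid values were 69.0% and 35.3% with overlapping intervals.

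**Figure D1:**
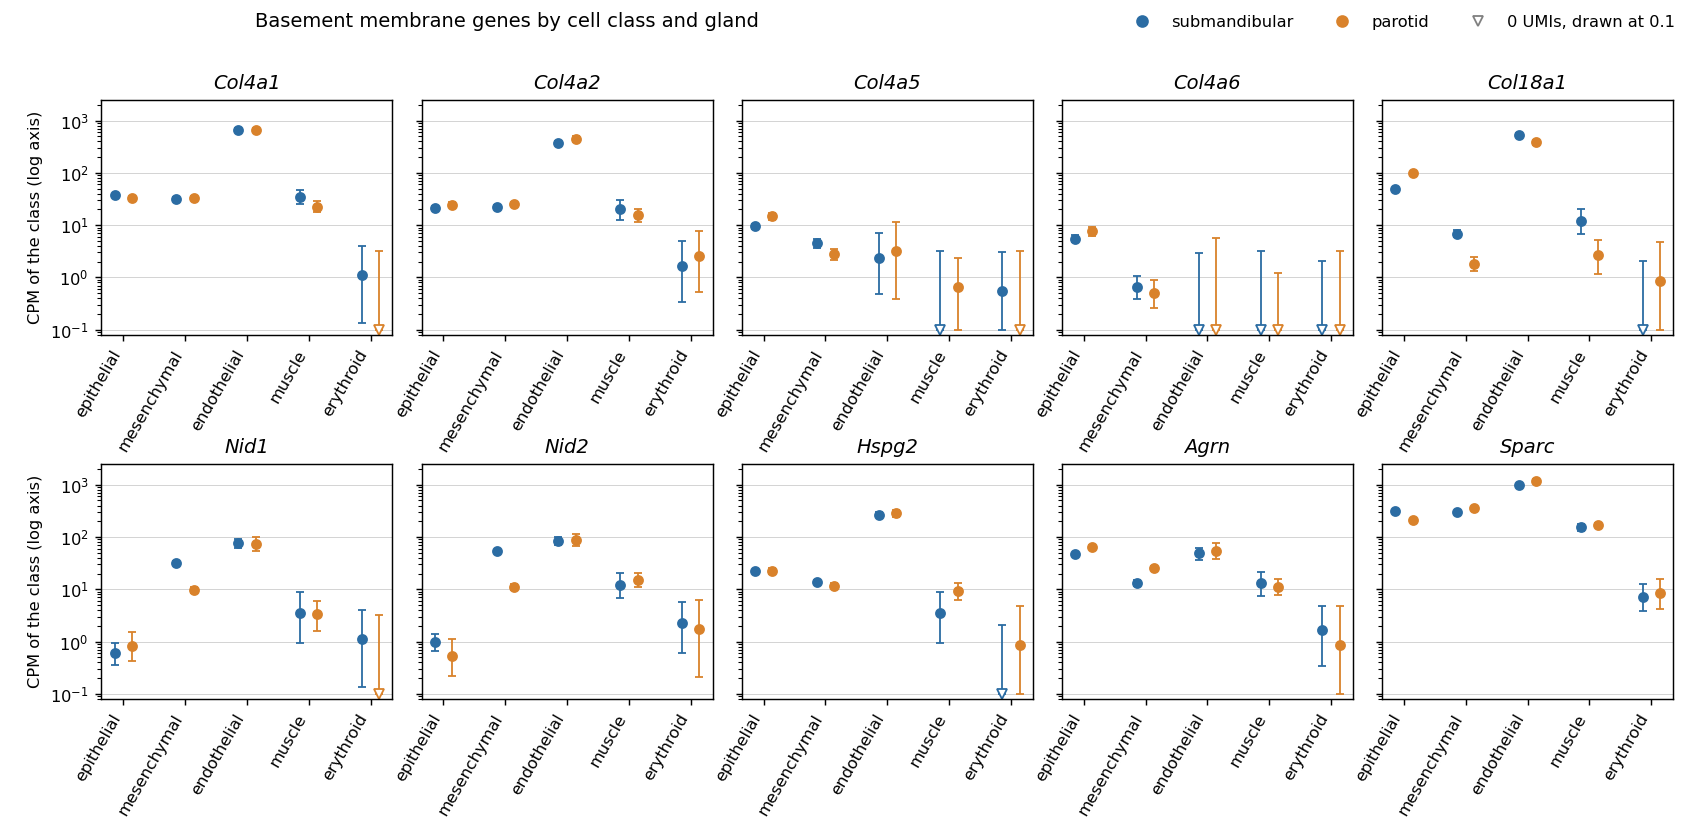
Level of each gene in CPM (log axis) in 5 cell classes of the submandibular (blue) and parotid (orange) gland, 1 library per point, with exact 95% Poisson intervals cut off at 0.1. Epithelial-like cells are from the epithelium libraries and all others from the mesenchyme libraries. Col4a1 stands at 672 and 658 CPM in endothelial cells, above every other class, while Col4a6 has 0 UMIs there.

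Col4a5 and Col4a6, the chains of the narrower form, were higher in epithelium than in mesenchymal-like or endothelial cells. Col4a5 stood at 14.7 CPM (12.7 to 17.0) in parotid and 9.58 CPM (8.53 to 10.7) in submandibular epithelium. Submandibular and parotid mesenchymal-like cells held 4.46 CPM (3.66 to 5.39) and 2.76 CPM (2.13 to 3.51). Endothelial cells held 3 UMIs (2.39 CPM, 0.492 to 6.98) of it in the submandibular and 2 UMIs (3.15 CPM, 0.381 to 11.4) in the parotid gland. These intervals overlap those of the mesenchymal-like cells of the same library. Col4a5 was thus 2.15-fold higher (1.72 to 2.70) in epithelium than in mesenchyme of the submandibular gland and 5.34-fold higher (4.02 to 7.18) in the parotid gland.

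Col4a6 stood at 7.72 CPM (6.28 to 9.37) in parotid and 5.51 CPM (4.73 to 6.39) in submandibular epithelium. Mesenchymal-like cells held 16 UMIs (0.667 CPM) in the submandibular and 12 UMIs (0.502 CPM) in the parotid gland. Endothelial cells held 0 UMIs in both glands, with upper limits of 2.94 and 5.80 CPM, above the mesenchymal levels. The epithelium exceeded the mesenchyme 8.26-fold (4.95 to 14.8) and 15.4-fold (8.43 to 30.7). In no class did either chain reach 50 CPM, so neither could pass the rule of size used here (at least 50 CPM in the higher class and at least 2-fold).

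**Figure D2:**
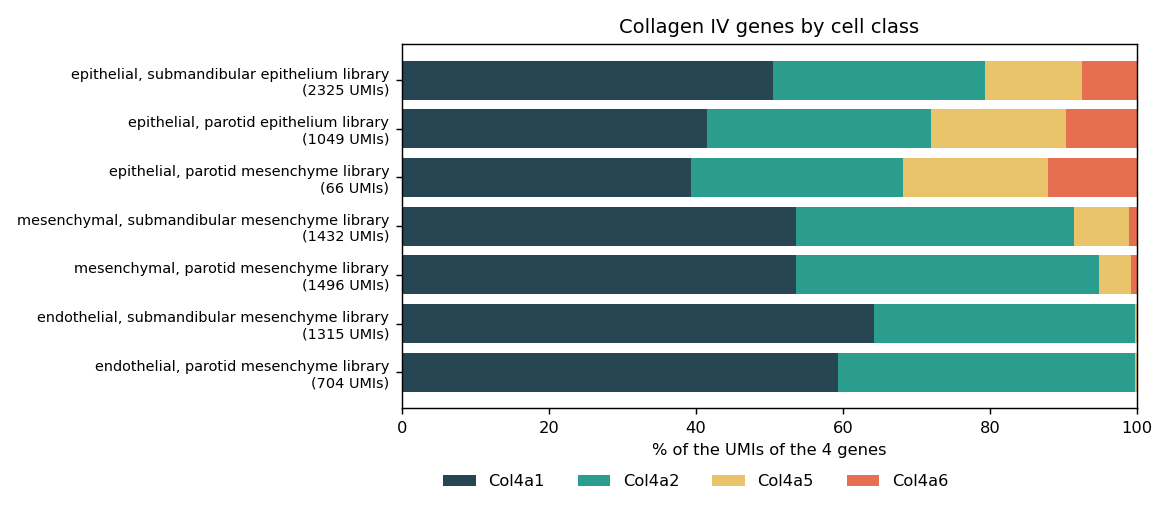
Share of the UMIs of Col4a1, Col4a2, Col4a5 and Col4a6 that belonged to each gene, by cell class and library, uncorrected for transcript length. Col4a5 and Col4a6 together make up 20.6% and 28.0% in submandibular and parotid epithelium, 8.59% and 5.21% in mesenchyme, and 0.228% and 0.284% in endothelial cells.

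Taking the UMIs of all 4 chains together gives a ratio that does not depend on the scaling of the libraries. Col4a5 and Col4a6 made up 20.6% (18.98 to 22.3) of them in submandibular and 28.0% (25.3 to 30.9) in parotid epithelium. The 108 epithelial-like cells of the parotid mesenchyme library, a separate capture, gave 31.8% (20.9 to 44.4). The share was lower in mesenchyme, at 8.59% (7.19 to 10.2) and 5.21% (4.14 to 6.46) in the submandibular and parotid gland, and lowest in endothelial cells, at 0.228% (0.0471 to 0.665) and 0.284% (0.0344 to 1.02). The intervals of the 3 classes did not overlap. The share is taken over all 4 chains, and Col4a1 and Col4a2 were high in endothelial cells. Col4a5 itself did not differ beyond counting error between endothelial and mesenchymal-like cells. The number of Col4a2 UMIs per Col4a1 UMI was closer across classes, from 0.553 (0.493 to 0.620) in submandibular endothelial cells to 0.766 (0.688 to 0.852) in parotid mesenchyme. In each of the 3 classes it was higher in the parotid gland, with intervals that did not overlap in epithelium, at 0.574 (0.521 to 0.631) and 0.736 (0.635 to 0.852).

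Of the heparan sulphate proteoglycans, Hspg2 followed Col4a1. Perlecan, its product, is the large proteoglycan that holds FGF10 in the submandibular gland. It stood at 267 CPM (240 to 298) and 286 CPM (246 to 331) in submandibular and parotid endothelial cells, 22.1 and 22.5 CPM in epithelium, and 13.8 and 11.8 CPM in mesenchyme. The endothelial level was 19.4-fold (16.6 to 22.6) and 24.3-fold (20.0 to 29.4) above the mesenchymal one, and epithelium exceeded mesenchyme 1.60-fold (1.40 to 1.83) and 1.91-fold (1.62 to 2.26). Submandibular and parotid glands did not differ beyond counting error in epithelium, mesenchyme or endothelial cells. The ratios of submandibular to parotid were 0.980 (0.854 to 1.13), 1.17 (0.996 to 1.38) and 0.934 (0.777 to 1.12).

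Col18a1, whose product carries the endostatin fragment, was high in endothelial cells, intermediate in epithelium and low in mesenchyme. Endothelial cells held 529 CPM (490 to 571) in the submandibular and 384 CPM (337 to 435) in the parotid gland. Parotid epithelium held 98.1 CPM (92.8 to 104) and submandibular epithelium 48.65 CPM (46.3 to 51.1). Mesenchymal-like cells held 6.84 CPM (5.83 to 7.97) in the submandibular and 1.84 CPM (1.34 to 2.47) in the parotid gland. None of these 6 intervals overlapped. The endothelial level was 77.4-fold (65.1 to 92.4) above the mesenchymal one in the submandibular and 209-fold (151 to 295) in the parotid gland. Parotid epithelium exceeded parotid mesenchyme 53.3-fold (39.5 to 73.8), and submandibular epithelium exceeded its mesenchyme 7.11-fold (6.05 to 8.41).

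Agrn, a proteoglycan also known from the nerve-muscle synapse, had its highest values in parotid epithelium at 65.5 CPM (61.2 to 70.1) and in parotid endothelial cells at 55.1 CPM (38.4 to 76.6). Submandibular epithelium at 47.5 CPM (45.1 to 49.9) and submandibular endothelial cells at 48.5 CPM (37.1 to 62.4) did not differ beyond counting error. Parotid mesenchyme held 26.0 CPM (24.0 to 28.1) and submandibular mesenchyme 13.2 CPM (11.8 to 14.8). Epithelium therefore exceeded mesenchyme 3.59-fold (3.18 to 4.07) in the submandibular and 2.52-fold (2.27 to 2.80) in the parotid gland. Agrn was 3.67-fold (2.74 to 4.84) higher in endothelial than in mesenchymal-like cells in the submandibular gland and 2.12-fold (1.46 to 2.98) higher in the parotid gland.

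The nidogens were mesenchymal and endothelial. Nid1 stood at 32.0 CPM (29.8 to 34.3) in submandibular and 9.78 CPM (8.57 to 11.1) in parotid mesenchymal-like cells, and at 75.6 CPM (61.2 to 92.4) and 74.0 CPM (54.3 to 98.3) in the endothelial cells of the same libraries. Epithelial-like cells held 19 UMIs (0.599 CPM) in the submandibular and 11 UMIs (0.840 CPM) in the parotid gland. Nid2 stood at 53.7 CPM (50.9 to 56.8) in submandibular and 11.04 CPM (9.75 to 12.5) in parotid mesenchyme, and at 84.3 CPM (69.1 to 102) and 88.1 CPM (66.6 to 114) in endothelial cells. Epithelial-like cells held 31 UMIs (0.977 CPM) and 7 UMIs (0.535 CPM) of Nid2. The mesenchymal level thus differed between the glands where the endothelial level did not differ beyond counting error.

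The submandibular mesenchyme exceeded its epithelium 53.4-fold (34.0 to 89.2) for Nid1 and 55.03-fold (38.6 to 81.3) for Nid2. In the parotid gland the folds were 11.6 (6.39 to 23.6) and 20.6 (9.88 to 51.8). The epithelial nidogen level was 1.87% and 1.82% of the mesenchymal one in the submandibular and 8.59% and 4.84% in the parotid gland. The 8 mesenchymal marker genes had medians of 0.179% and 0.313% of their mesenchymal level there. The nidogens stood above 7 of the 8, which reached at most 0.309% and 0.942%, and below Postn, at 3.56% and 10.98%. The part of stray mesenchymal RNA in the epithelial nidogen counts was not tested.

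Nid2 UMIs per Nid1 UMI were 1.68 (1.54 to 1.84) in submandibular and 1.13 (0.943 to 1.35) in parotid mesenchyme. Endothelial cells held 1.12 (0.838 to 1.49) and 1.19 (0.794 to 1.79), and parotid muscle-like cells 4.60 (2.29 to 10.2). At 2500 UMIs, 17.6% (13.7 to 22.1) of submandibular mesenchymal-like cells with Nid1 also held Nid2, against 13.2% (12.1 to 14.3) of those without Nid1.

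Sparc, which binds collagen and is made at sites of matrix remodelling, was found in every main class. It stood at 982 CPM (928 to 1038) and 1180.1 CPM (1097 to 1268) in submandibular and parotid endothelial cells. Mesenchymal-like cells held 302 CPM (295 to 309) and 361 CPM (353 to 368), and epithelial-like cells 316 CPM (309 to 322) and 210 CPM (202 to 218). The endothelial level was 3.25-fold (3.06 to 3.45) and 3.27-fold (3.03 to 3.53) above the mesenchymal one. A Sparc UMI was present in 86.9% of submandibular and 71.8% of parotid epithelial-like cells, or 51.4% (49.7 to 53.2) and 41.0% (38.7 to 43.4) after thinning. Erythroid-like cells stood at 7.62% in submandibular and 10.1% in parotid mesenchyme, or 0.952% and 1.45% after thinning, with the depths given above. Median depths of the epithelial-like cells were 9139 and 7033 UMIs.

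Endothelial cells were few, yet they held a large share of the mesenchyme libraries' UMIs of several members. They made up 2.48% of kept barcodes and 4.01% of all UMIs in submandibular mesenchyme, and 1.33% and 2.09% in parotid mesenchyme. They held 49.1% (46.7 to 51.5) and 31.4% (28.9 to 33.9) of the Col4a1 UMIs of the submandibular and parotid mesenchyme libraries. For Col18a1 the shares were 70.6% (67.6 to 73.5) and 61.3% (56.3 to 66.1), for Hspg2 46.7% (43.0 to 50.4) and 34.5% (30.4 to 38.7), and for Col4a2 42.9% (39.9 to 45.9) and 28.7% (25.9 to 31.6). Nid1, Nid2, Agrn and Sparc had between 4.44% and 15.7% of their UMIs there, and Col4a5 2.54% and 2.41%.

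**Figure D3:**
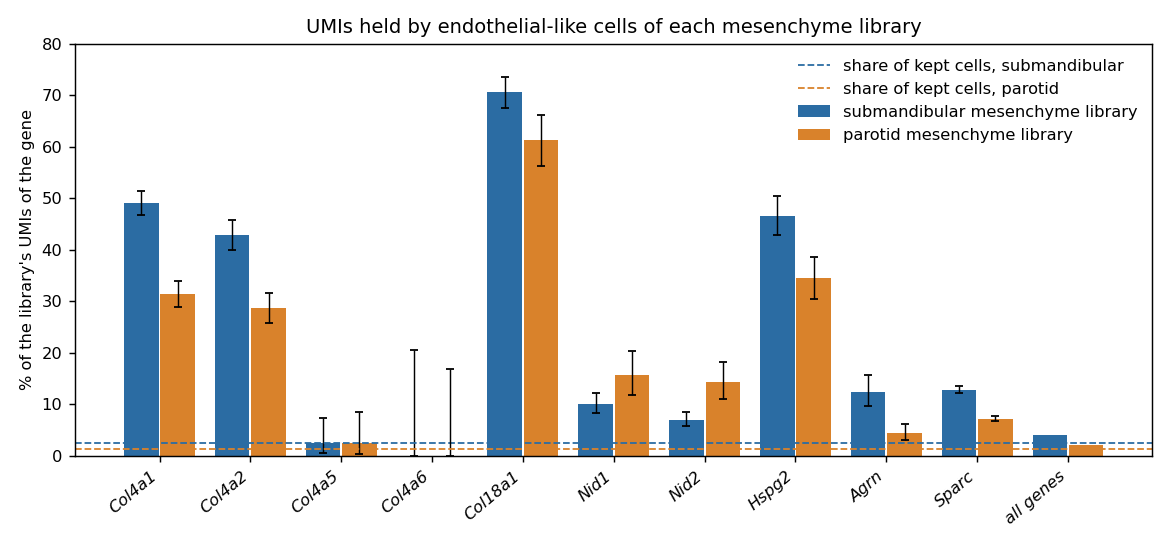
Percent of each gene's UMIs in the submandibular (blue) and parotid (orange) mesenchyme library that lay in endothelial cells, with exact 95% binomial intervals. Dashed lines mark the share of kept barcodes that were endothelial, 2.48% and 1.33%. Col18a1 reaches 70.6% and 61.3%, and Col4a6 is at 0.

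The whole library and the mesenchymal-like class therefore differed. Over all kept barcodes Col4a1 stood at 54.9 CPM (52.3 to 57.5) in submandibular and 43.8 CPM (41.5 to 46.2) in parotid mesenchyme. In mesenchymal-like cells alone the values were 32.0 and 33.6 CPM, with overlapping intervals. For Col18a1 the whole libraries gave 30.0 and 13.1 CPM, against 6.84 and 1.84 CPM in mesenchymal-like cells. Epithelial-like cells held 20.4% (16.5 to 24.6) of the Col18a1 UMIs of the parotid mesenchyme library, beside the endothelial share. Stray endothelial RNA was followed through the 12 endothelial markers not used for the gate, which stood in mesenchymal-like cells at 0.0849% to 3.91% of their endothelial level in the submandibular gland (median 0.456%) and at 0.0898% to 3.24% in the parotid gland (median 0.212%). Col4a1, Col4a2 and Hspg2 stood above those ranges, at 4.76%, 6.07% and 5.16% in the submandibular and 5.10%, 5.75% and 4.12% in the parotid gland. Col18a1 stood within them, at 1.29% and 0.479%, and the part of stray endothelial RNA in its mesenchymal level was not tested.

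Against all genes, the endothelial comparison with mesenchymal-like cells passed the rule of size for 12.1% of the 3544 genes of at least 50 CPM as endothelial-higher in the submandibular gland. That share was 13.1% of 3468 genes in the parotid gland. Of the 10 members, 6 were endothelial-higher in the submandibular gland (7 reached 50 CPM) and 8 in the parotid gland (8 reached 50 CPM), and 0 were mesenchyme-higher in either. In mesenchymal-like cells only Nid2 (53.7 CPM) and Sparc (302 CPM) reached 50 CPM in the submandibular gland, and only Sparc (361 CPM) in the parotid gland. The other members passed the minimum through endothelial cells alone and could not have been called mesenchyme-higher. At any level, 7 and 8 of the 9 members with a ratio were at least 2-fold higher in endothelial cells, and 0 in mesenchymal-like cells. Calls in either direction took 25.9% and 27.8% of genes. The median log2 ratio of endothelial to mesenchymal level was 1.88 in the submandibular and 2.997 in the parotid gland over the 9 members with a ratio, at any level. Over the 7 and 8 members of at least 50 CPM it was 4.04 and 3.56, and over all genes of that level −0.15 and −0.14, so the order of the glands turned on the minimum. Both comparisons have their own mesenchymal-like cells as reference, and the values are set side by side only.

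Between the glands, 3 members differed beyond counting error in endothelial cells. No member passed the rule of size, where 3.17% of 3061 genes did. Col18a1 was 1.38-fold higher (1.19 to 1.60) in submandibular endothelial cells, and Col4a2 and Sparc were 1.202-fold (1.03 to 1.40) and 1.202-fold (1.10 to 1.32) higher in parotid ones. The ratios of Col4a1, Nid1, Nid2, Hspg2 and Agrn had intervals that included 1. For Nid1 the interval ran from 0.713 to 1.48, so a difference of that size was not detectable at this depth.

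In mesenchymal-like cells the largest ratio between the glands among the members was that of Nid2. It was 4.87-fold higher (4.26 to 5.58) in the submandibular gland and was the only member past the rule of size, which 7.5% of 3265 genes passed in either direction and 3.89% as submandibular-higher. Over all kept barcodes it stood at 48.2 CPM and missed the minimum. Only 2 of the 10 members reached 50 CPM. Below that level Nid1 was 3.27-fold higher (2.82 to 3.80), Col18a1 3.72-fold (2.65 to 5.31) and Col4a5 1.62-fold (1.18 to 2.23), all in the submandibular gland. The part of stray endothelial RNA in the Col18a1 ratio was not tested. Agrn was 1.96-fold higher (1.71 to 2.26) in the parotid gland, and Sparc 1.19-fold (1.16 to 1.23). Col4a2 was also parotid-higher beyond counting error, at 25.7 CPM against 22.6 CPM (log2 ratio of submandibular to parotid −0.19). Col4a1 did not differ beyond counting error. The median log2 ratio of submandibular to parotid was 0.32 over the 10 members at any level, 1.01 over the 2 of at least 50 CPM and −0.02 over all genes of that level.

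Between the epithelia, Col18a1 was 2.02-fold higher (1.87 to 2.17) in the parotid gland and was the only member past the rule of size, which 4.51% of 3014 genes passed and 2.49% as parotid-higher. Its lower bound lies under 2-fold, and the call is lost with TMM scaling (log2 ratio −0.94 in place of −1.01). Col4a5 was 1.54-fold higher (1.28 to 1.85), Col4a6 1.40-fold (1.08 to 1.80), Agrn 1.38-fold (1.27 to 1.50) and Col4a2 1.15-fold (1.01 to 1.32) in the parotid epithelium. Sparc was 1.51-fold higher (1.44 to 1.57) in the submandibular epithelium, while Col4a1 and Hspg2 did not differ beyond counting error. The median log2 ratio of submandibular to parotid was −0.34 over the 10 members at any level, −0.47 over the 3 of at least 50 CPM and 0.04 over all genes of that level. The parotid epithelial-like cells of the mesenchyme library gave the same levels as those of the epithelium library within counting error for 8 of the 9 members with a ratio. The exception was Sparc, 1.39-fold (1.22 to 1.57) higher in the mesenchyme library. Mesenchymal markers stood at 7.03% of their mesenchymal level in the epithelial-like cells there, against 0.625% in the epithelium library. The part of stray mesenchymal RNA in the Sparc difference was not tested.

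**Figure D4:**
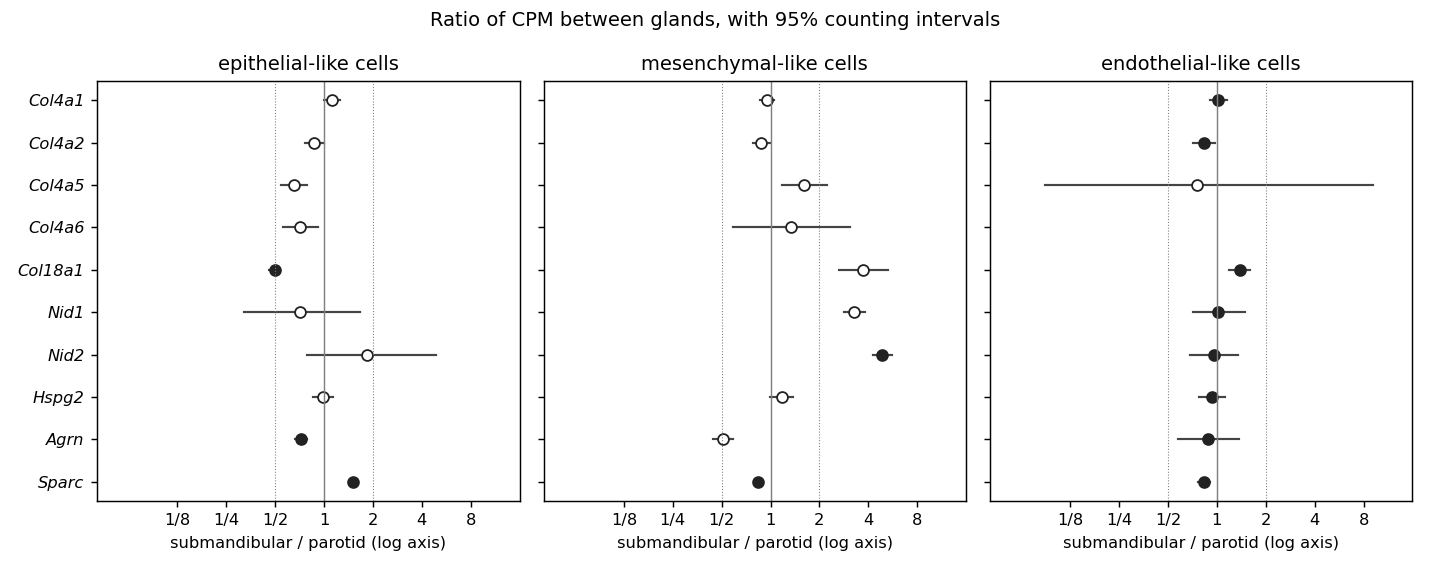
Ratio of submandibular to parotid CPM (log axis) for each gene in epithelial-like, mesenchymal-like and endothelial cells, with exact 95% intervals. Filled points reach 50 CPM in the higher gland, dotted lines mark 2-fold, and Col4a6 has no endothelial value. Nid2 lies at 4.87 in mesenchymal-like cells and at 0.957 in endothelial cells.

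Set by tissue, the submandibular epithelium and mesenchyme differed by the rule of size in 21.5% of 3448 genes, 8.87% as epithelium-higher and 12.6% as mesenchyme-higher. The only member among them was Nid2, higher in mesenchyme. Of all genes that passed, 41.4% were higher in epithelium, and 63.8% were with edgeR's TMM scaling, which moved the median log2 ratio of all genes from 0.03 to 0.35. With that scaling Col18a1 and Agrn passed, as both then reached 50 CPM in epithelium, and Nid2 no longer did. In the parotid gland 15.7% of 3279 genes passed, 6.43% as epithelium-higher and 9.3% as mesenchyme-higher, and of the members Col18a1 and Agrn did, both higher in epithelium. The median log2 ratio of epithelium to mesenchyme over all 10 members, at any level, was 0.44 in the submandibular and 0.46 in the parotid gland. Over the members of at least 50 CPM it was −2.86 (2 genes) and 1.34 (3 genes), and over all genes of that level 0.03 and −0.01, so the submandibular sign turned on the minimum. Sparc was 1.04-fold higher (1.01 to 1.08) in submandibular epithelium than mesenchyme, a log2 ratio of 0.06 that became 0.33 with TMM scaling, and it was 1.72-fold higher (1.65 to 1.80) in parotid mesenchyme than epithelium.

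Within the epithelium, cells were parted by Sox10, a transcription factor gene of the distal end bud cells, and by the basal keratins Krt5 + Krt14. In the parotid gland 180 of 1760 epithelial-like cells held a Sox10 UMI. They had less Col18a1 than the others, 47.1 CPM against 106 CPM (2.25-fold, 1.79 to 2.85), and less Agrn, 39.0 against 69.6 CPM (1.79-fold, 1.39 to 2.33). Col4a6 was higher in them, at 18.0 against 6.16 CPM (2.93-fold, 1.85 to 4.53). In the submandibular gland, with 668 of 3183 cells holding Sox10, the same genes had smaller ratios: Col18a1 was 1.24-fold lower (1.10 to 1.39), Agrn 1.29-fold lower (1.15 to 1.46) and Col4a6 1.47-fold higher (1.07 to 2.02). Hspg2 was lower in Sox10-holding cells of both glands, 1.26-fold (1.06 to 1.51) in the submandibular and 1.63-fold (1.08 to 2.57) in the parotid gland. Cells with a Sox10 UMI were deeper, with median UMIs of 12833 against 8135 in the submandibular and 8741 against 6804.5 in the parotid gland, and the part of depth in the split was not tested.

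The keratin split ran the other way in the parotid gland. Its 1423 cells with at least 3 UMIs of Krt5 + Krt14 had 1.64-fold (1.39 to 1.95) more Col18a1, 1.52-fold (1.24 to 1.87) more Agrn and 1.62-fold (1.16 to 2.33) more Col4a2 than the 337 other cells, and 3.16-fold (2.08 to 4.78) less Col4a6. Hspg2 and Sparc were also higher in the 1423 cells, 1.52-fold (1.08 to 2.20) and 1.24-fold (1.12 to 1.38). Median depths were 7033 and 7027 UMIs. In the submandibular gland, where 959 cells passed and 2224 did not, Agrn was 1.28-fold (1.15 to 1.43) higher and every other member had an interval that included 1. Both splits use the same cells, and neither difference between the glands was tested.

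**Figure D5:**
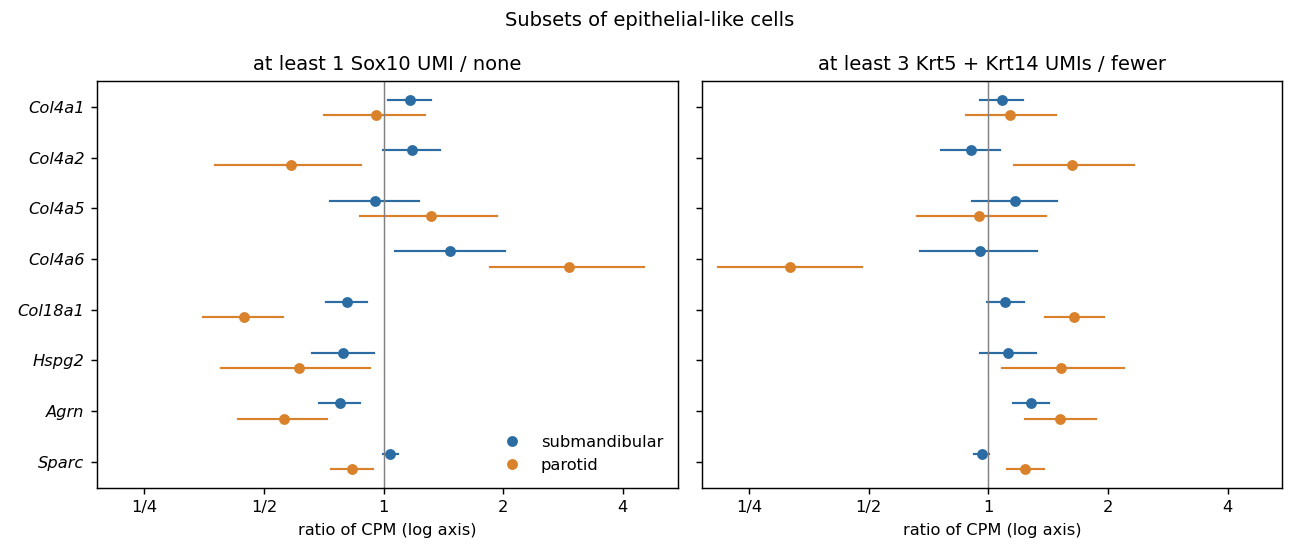
Ratio of CPM (log axis) between subsets of epithelial-like cells of the submandibular (blue) and parotid (orange) gland, with exact 95% intervals, for the 8 genes other than the nidogens. Parotid Col4a6 is 2.93-fold higher in cells with Sox10 and 3.16-fold lower in cells with Krt5 + Krt14.

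Subsets of the mesenchyme were chosen after values had been seen, and their differences are descriptions. The 327 submandibular mesenchymal-like cells with Foxf1 held 2.95-fold (2.18 to 4.10) less Nid2 and 2.59-fold (1.79 to 3.90) less Nid1 than the 3800 others. Col4a5, Col18a1 and Sparc were also lower in them, 3.53-fold (1.18 to 17.4), 2.29-fold (1.08 to 5.78) and 1.32-fold (1.21 to 1.45). Median depths were 6387 UMIs with Foxf1 and 5212.5 UMIs without, and the part of depth was not tested. The 815 cells with Cxcl13 held 1.49-fold (1.32 to 1.69) more Nid2. In the parotid gland, the 1658 cells with Tbx18 held 1.61-fold (1.54 to 1.68) more Sparc and 1.41-fold (1.10 to 1.81) more Nid2 than the 2258 others. Sparc was 1.37-fold (1.31 to 1.44) lower in the 1095 cells with Pax1, whose median depth was 6204 UMIs against 5381 in the others.

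Smaller classes of the mesenchyme libraries had patterns of their own. The 93 neural crest-like cells of the submandibular library held 46.2 CPM (33.7 to 61.9) of Col18a1, 6.76-fold (4.75 to 9.45) above the mesenchymal-like cells, 42.1 CPM (30.2 to 57.1) of Agrn and 504 CPM (461 to 551) of Sparc. Muscle-like cells, 83 and 184 in the submandibular and parotid library, held 153 and 169 CPM of Sparc, 1.98-fold (1.70 to 2.32) and 2.13-fold (1.95 to 2.33) less than mesenchymal-like cells. Erythroid-like cells held 0 to 2.60 CPM of every member but Sparc, which stood at 7.25 and 8.67 CPM.

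Profiles were compared over 13 class and library pairs of at least 50 cells, as Pearson's r of log2(CPM + 1). These points share libraries and differ in depth, so r is a description. Col4a1 and Col4a2 gave r = 0.977, Col4a2 and Hspg2 0.943, Nid1 and Nid2 0.922, Col4a5 and Col4a6 0.868, while Col4a1 and Col4a6 gave 0.0551. Among 4606 genes of at least 50 CPM in a class, the 5 most like Col4a1 were Pitpna (0.995), Col4a2 (0.977), Sft2d1 (0.968), Uaca (0.965) and Rab11a (0.955). The gene most like Col4a5 was Epcam (0.952), an epithelial adhesion gene that served as a marker of the epithelial class. The closest to Nid1 was Sepp1 (0.968) and the closest to Sparc was Tpst2 (0.986). Sparc stood at 7.25 and 8.67 CPM in the erythroid classes and at 109 to 1180 CPM in all other classes. The weight of the erythroid classes in its r was not tested.

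Other basement membrane genes, 27 in all, were read in the same classes. In endothelial against mesenchymal-like cells of the submandibular gland, 5 of the 8 that reached 50 CPM were endothelial-higher and 2 mesenchyme-higher. In the parotid gland the counts were 5 and 4 of 9. Of all genes of at least 50 CPM, 12.1% and 13.1% were endothelial-higher and 13.9% and 14.7% mesenchyme-higher in the submandibular and parotid gland. A gene that reached 50 CPM in endothelial cells alone could not have been called mesenchyme-higher. Col15a1 and Lama4 were such genes, at 1.00 and 7.80 CPM in submandibular mesenchymal-like cells. The same limit held, in either direction, in the lists and comparisons below. Col15a1, a relative of collagen XVIII, was 233-fold (154 to 370) and 213-fold (133 to 357) higher in submandibular and parotid endothelial cells. Lama4, the laminin chain of vessels, was 17.6-fold (14.2 to 21.7) higher in the submandibular and 8.43-fold (6.77 to 10.4) in the parotid gland. Tinagl1 was 5.86-fold (4.73 to 7.20) and 307-fold (132 to 878) higher. Egfl6 was 13.5-fold (7.52 to 27.0) and 17.3-fold (5.92 to 84.1) lower. The list's medians of the log2 ratio were 2.37 and 1.63.

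Between the mesenchymes, 1 of the 5 that reached 50 CPM was submandibular-higher and 2 were parotid-higher. Over all genes of that level the shares were 3.89% and 3.61%. The laminin chain gene Lamb1 was 6.07-fold (5.65 to 6.53) higher in the submandibular gland. The matrix genes Smoc2 and Fbln2 were 11.9-fold (10.6 to 13.5) and 3.40-fold (3.11 to 3.73) higher in the parotid gland. The median was 0.40. Between the epithelia 1 of 3, Smoc2, was parotid-higher, 2.30-fold (2.08 to 2.54), with a median of −0.41. Of all genes of that level, 2.49% were parotid-higher. Against epithelium, 3 of 3 in the submandibular and 3 of 5 in the parotid gland were mesenchyme-higher, with medians of −2.07 and −1.37. The shares over all genes were 12.6% and 9.3%.

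Of 17 genes for collagen folding and cross-linking, 1 of 7 was endothelial-higher in the submandibular gland (Pxdn, which makes the sulphilimine cross-link of collagen IV, 2.62-fold, 2.13 to 3.19). In the parotid gland 1 of 9 was endothelial-higher and 3 were mesenchyme-higher, with Lox lower 7.87-fold (3.61 to 21.5). Over all genes 12.1% and 13.1% were endothelial-higher in the submandibular and parotid gland, and 13.9% and 14.7% mesenchyme-higher. Between mesenchymes Lox, a lysyl oxidase, was 5.57-fold (4.94 to 6.29) higher in the parotid and Loxl2 2.0998-fold (1.94 to 2.28) higher in the submandibular gland, and the other 5 of 7 did not pass. Of 16 receptor genes, 3 reached 50 CPM in each endothelial comparison, with 1 endothelial-higher and 1 mesenchyme-higher in each gland. Itga6, which pairs in laminin receptors, was 64.1-fold (48.3 to 86.1) and 152-fold (92.5 to 263) higher in submandibular and parotid endothelial cells, and the syndecan Sdc1 4.88-fold (3.43 to 7.19) and 5.39-fold (3.21 to 9.87) lower. Between epithelium and mesenchyme, 2 of 4 receptor genes in the submandibular and 3 of 5 in the parotid gland were epithelium-higher and 0 mesenchyme-higher. Over all genes 8.87% and 6.43% were epithelium-higher and 12.6% and 9.3% mesenchyme-higher. The called genes, Bcam and Sdc4 in both glands and Ddr1 in the parotid gland, stayed below 50 CPM in mesenchyme. They could therefore not have been called mesenchyme-higher. Bcam, a laminin-binding adhesion gene, was 46.8-fold (34.9 to 64.4) and 160-fold (110.0 to 244) higher in epithelium.

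Of 14 heparan sulphate genes, Sulf2, which trims the sulphate groups that growth factors bind, was lower in endothelial than in mesenchymal-like cells, 2.92-fold (2.25 to 3.88) and 4.32-fold (2.69 to 7.43), and the other gene of 50 CPM did not pass. Between the glands no gene of that list passed, with 1 reaching 50 CPM in epithelium and 2 in mesenchyme. Of 15 protease and inhibitor genes, 3 of 8 were submandibular-higher between the mesenchymes and 0 parotid-higher. They were Adamts1 (3.21-fold, 2.96 to 3.49), the inhibitor Timp3 (2.65-fold, 2.42 to 2.91) and Ctsl (2.16-fold, 2.02 to 2.30), and the list's median log2 ratio was 0.55. Against mesenchymal-like cells, 2 of 8 were endothelial-higher and 3 lower in the submandibular gland, and 2 and 2 of 7 in the parotid gland. The shares over all genes are those given above for the endothelial comparisons. Timp3 was 2.23-fold (1.91 to 2.58) and 5.16-fold (4.07 to 6.46) higher in endothelial cells, while the inhibitor Timp2 was 6.10-fold (4.42 to 8.67) and 8.67-fold (4.199 to 21.6) lower and the protease Mmp11 6.28-fold (3.85 to 11.001) and 8.67-fold (3.98 to 23.7) lower.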

How the data were processed

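Whole-number UMI counts per gene and barcode were deposited by the authors for each library, not normalized. Reads had been processed with Cell Ranger 2.1.1 on mm10, per the submitters' processing notes. Filters behind the deposited barcodes are not given in the sources used here. The members and all gene lists were chosen with earlier results of these data known.

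Kept barcodes had 500 or more detected genes and a mitochondrial share of 10% or less. Classes were set by at least 3 summed UMIs of 9 marker lists. Barcodes past the endothelial gate were called endothelial whatever other gate they passed, and mesenchymal-like cells had to pass no other gate. Barcodes past several of the remaining gates were left out (449 in submandibular epithelium, and 10 to 34 in each other library), and 54 to 157 per library had no class. No doublet caller was run. UMIs were summed per class and library and scaled to CPM by the class total. The 95% intervals are exact Poisson for levels, exact binomial on the split of counts for ratios, and Clopper-Pearson for shares. PCR and capture error are not covered. A gene was called past the rule of size at 50 CPM or more in the higher class and 2-fold or more. Shares of cells were also computed after thinning each cell to 2500 UMIs. The 10 members are named throughout, with up to 4 genes of largest ratio per list and comparison, and for likeness the closest genes by r.

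Coordinates come from the GENCODE annotation of GRCm38, and promoters from RefSeq (GRCm38.p6). The ratio and call steps were tested on simulated data. Alternatives were TMM scaling (edgeR 4.0.16, R 4.3.3), other CPM minimums, gene and mitochondrial filters, mean CPM per cell, other endothelial gates and all kept barcodes. Python 3.11.15, numpy 2.4.6, scipy 1.17.1, pandas 2.3.3 and matplotlib 3.10.9 were used.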

Additional observations from a re-analysis of the deposited data

Results flagged for a closer look

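In 3 genes the difference between the glands ran in opposite directions in different cell classes, with 1 library per value, and the difference was not tested. Col18a1 was parotid-higher in epithelium (log2 ratio of submandibular to parotid −1.01) and submandibular-higher in mesenchymal-like cells (1.89) and endothelial cells (0.46), differences of −2.91 and −1.47 between the ratios. Its mesenchymal levels lay within the range of the stray endothelial markers given above. The part of stray endothelial RNA in the mesenchymal ratio was not tested. Col4a5 had log2 ratios of −0.62 in epithelium and 0.69 in mesenchymal-like cells, a difference of −1.32. Sparc had 0.59 in epithelium, −0.25 in mesenchymal-like cells and −0.27 in endothelial cells, differences of 0.84 and 0.86. The same 4 Sparc values, read as epithelium against mesenchyme, give log2 ratios of 0.06 in the submandibular and −0.78 in the parotid gland, again a difference of 0.84. In epithelium and mesenchyme these gland differences exceed counting error, and no replicate exists against which they could be read.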

How the results depend on the processing

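The counts of members past the rule of size in the endothelial comparisons stayed within 1.5 times under every alternative run (6 or 7 of 10 in the submandibular, 8 in the parotid gland, 0 between glands). The smaller counts moved. Between the epithelia, the 1 member became 0 with TMM scaling and 0 with the mean of CPM per cell. Between the mesenchymes, 1 became 2 with a minimum of 10 CPM, 3 with no minimum and 0 over all kept barcodes. For submandibular epithelium against mesenchyme, 1 became 2 with TMM scaling, 4 with a minimum of 10 CPM, 6 with no minimum, 3 with the mean per cell and 0 over all kept barcodes. In the parotid gland 2 became 4 and 6 with the lower minimums. A lower minimum tests more genes. Over all kept barcodes, which put endothelial cells and the other classes into the mesenchyme, the Col18a1 ratio of epithelium to mesenchyme moved 4.49 times in the submandibular and 7.22 times in the parotid gland. TMM scaling moved the median log2 ratio of all genes from −0.02 to −0.15 between mesenchymes, from −0.15 to 0.03 for submandibular endothelial cells, where the share of calls higher in endothelial cells went from 46.6% to 57.2%, and from −0.14 to −0.03 for parotid ones. Keeping the epithelial barcodes past the chondrogenic gate, an alternative chosen after seeing the data, moved 0 of 30 ratios beyond their intervals. No alternative turned a called member. Thinning moved 68 of 90 shares of cells, as each cell then holds fewer UMIs. No paired analysis was possible because each group has 1 library. Depth limits Col4a6 and the epithelial nidogens, and 59 endothelial cells limit the parotid values.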
